A study of Mus musculus with 23 samples.

Results

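The cytosolic ribosomal protein genes code for the proteins of the ribosome that translates nuclear-encoded messages. They were taken from the count table as all rows named Rpl or Rps with a number (and the endings a, l or x), plus Rplp0, Rplp1, Rplp2 and Rpsa, leaving out rows named as pseudogenes. This gave 82 of the 49492 genes in the table, 50 of the large and 32 of the small subunit. The data are 23 libraries of polyadenylated RNA in 6 groups, from splenic CD8+ T cells of mice. Cells labelled PLPP1fl/fl (WT here) carry Plpp1, a membrane lipid phosphatase gene, flanked by loxP sites. Cells labelled Lckcre-PLPP1fl/fl (KO here) also carry Cre recombinase under the Lck promoter, which is active in the T cell lineage. Each genotype was left without fatty acid or given arachidonic acid (AA), a polyunsaturated fatty acid, or octadecenoic acid (OA), a monounsaturated one. The labels give no dose, time or age, and do not say whether the libraries are from different animals. The p-values therefore cover only how much these libraries vary, which may be technical. There were 4 libraries per group, and 3 for KO with OA.

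Ribosomal proteins are made in near equal numbers, because each ribosome holds about the same set of them. In vertebrates most of their mRNAs begin with a C followed by a run of C and T bases, the 5′ terminal oligopyrimidine (TOP) motif, through which mTORC1 and Larp1 govern mainly their translation. T cells that leave the resting state build ribosomes in large numbers, with Myc driving the genes of ribosome assembly. Counts of mRNA, as used here, say nothing of how much protein was made.

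The starts of 7 members are shown because the results below turn on these genes and because their first bases differ in the TOP motif. They were picked and do not stand for all members. Most tested members without the motif at the start also fell in untreated KO, as given below. Each line gives 20 bases before and 20 bases from the annotated transcript start in RefSeq (GRCm38.p6), 5′ to 3′ on the gene's strand. Capitals mark a run of at least 5 C or T bases that begins with C at the annotated start or within 5 bases of it.
Rps27 (small subunit, chr3:90213629-90213668, minus strand): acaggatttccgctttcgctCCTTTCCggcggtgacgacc
Rps21 (small subunit, chr2:180257359-180257398, plus strand): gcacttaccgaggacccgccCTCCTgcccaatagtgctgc
Rps15a (small subunit, chr7:118116128-118116167, minus strand): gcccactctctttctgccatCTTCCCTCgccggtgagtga
Rps6 (small subunit, chr4:86857348-86857387, minus strand): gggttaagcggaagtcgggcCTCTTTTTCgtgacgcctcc
Rplp2 (large subunit stalk, chr7:141447631-141447670, plus strand): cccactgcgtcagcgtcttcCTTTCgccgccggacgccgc
Rps2 (small subunit, chr17:24720043-24720082, plus strand): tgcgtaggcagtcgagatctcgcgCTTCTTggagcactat
Rps27l (paralog of Rps27, chr9:66946066-66946105, plus strand): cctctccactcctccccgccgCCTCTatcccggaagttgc

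Of the 82 members, 60 had such a start sequence, and 13 of these (21.7%) had the run exactly at the annotated start. Among all 19042 genes of the table with a start sequence the share was 2.76%. Allowing the run to begin within 5 bases of the start, 28 of the 60 members (46.7%) and 21.5% of all genes had it. A missing match says only that these letters are not in the window around the annotated start.

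Total counts per library lay between 39265131 and 58878203. Plpp1, the targeted gene, had 17 to 39 counts in the WT libraries and 15 to 37 in the KO libraries, so it gives no check on how the genotypes were labelled. The genotypes also stood apart in T cell receptor and sex-linked transcripts. Trbv12-1, a T cell receptor beta chain segment, made up 81.6% to 86.0% of the counts of 35 Trbv genes in the 12 WT libraries and 3.27% to 4.32% in the 11 KO libraries. Xist, the transcript of the silenced X chromosome, lay at 804 to 907 CPM (counts per 1000000 counts) in WT and 2.88 to 5.20 CPM in KO. Both genotypes held the Y-linked transcript Ddx3y, at 58.1 to 65.6 CPM in WT and 94.1 to 109 CPM in KO. The deletion of Plpp1 therefore cannot be told apart from these differences in any comparison of KO with WT. The 5 T cell and CD8 markers (Cd3d, Cd3e, Cd3g, Cd8a and Cd8b1) summed to 1474 to 1745 CPM over all libraries, and 5 B cell markers to at most 5.63 CPM.

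The levels of the members spanned a wide range and held their order in all groups. Per kilobase of the GENCODE M21 mRNA model, Rpl23a stood highest at 4238 CPM per kb, then Rpl19 at 2946, Rpl26 at 2670 and Rpl5 at 2276 CPM per kb. The lowest of the tested members with a model were Rps27l at 23.5, Rps29 at 38.0 and Rps20 at 61.9 CPM per kb. The place of Rps20 depends on its model, which is 3706 bases long for a coding part of 357 bases. Without division by length Rps20 lay at 229 CPM on average. The median of the tested members with a model was 477 CPM per kb. The rank order of the 82 members hardly moved between groups, with Spearman's rho of at least 0.9949 between any pair of group means, a description over genes that share libraries.

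Of the 82 members, 79 passed the filter on low counts. The other 3 are paralogs: Rpl10l had 0 counts in all 23 libraries, Rpl39l had 32 counts in all and Rpl3l had 84. Rpl10l and Rpl3l are known for expression in testis and in muscle. Rps4l passed at 0.291 CPM on average, near the filter. The tested members held 15 with a mean of at least 1000 CPM, 56 between 100 and 1000 CPM and 8 under 100 CPM. Reads of these genes can be shared with the 276 rows named as their pseudogenes, which touch 59 members, and with near-identical paralogs, so each value carries that uncertainty. Exons of 35 members also overlap another gene in the count table's exon models.

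The members together took a smaller share of the counts in KO. Without fatty acid, the share was 5.69%, 5.38%, 5.55% and 5.46% in the WT libraries and 4.88%, 4.73%, 4.72% and 4.75% in the KO libraries. The group means were 5.52% ± 0.134 (SD, n = 4) in WT and 4.77% ± 0.0747 (SD, n = 4) in KO. With AA the share was 5.39% ± 0.0779 in WT and 4.91% ± 0.241 in KO (SD, n = 4 each), and with OA 5.53% ± 0.168 (n = 4) and 4.70% ± 0.0892 (n = 3). The WT and KO libraries did not overlap on this scale. Replicate 2 of KO with AA, at 5.27%, stood above the other 3 libraries of its group, which lay between 4.78% and 4.82%. With library sizes scaled by TMM (edgeR's trimmed mean of M-values), the highest library of KO with AA (5.19%) passed the lowest of WT with AA (5.18%). A share is a relative measure: fewer cells of a type and less RNA of these genes per cell cannot be told apart in bulk RNA, nor can more RNA of other genes.

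**Figure D1:**
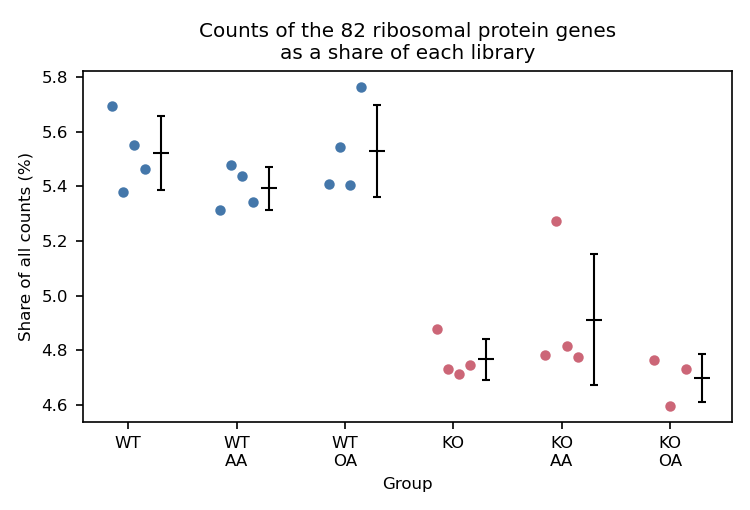
Share of all counts (%, axis not starting at 0) held by the 82 ribosomal protein genes in each library, by group, with points for libraries and bars for mean and SD. All WT libraries lie at 5.31% or above and all KO libraries at 5.27% or below, and the highest KO point is replicate 2 of KO with AA.

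Without fatty acid, most ribosomal protein mRNAs were lower in KO than in WT, each by a small amount. In the edgeR quasi-likelihood fit over all 23 libraries, 55 of the 79 tested members fell and 3 rose at a Benjamini-Hochberg adjusted p under 0.05. Of all 18015 tested genes, 49.7% passed this threshold, 25.5% higher and 24.2% lower. The median log2 change was -0.17 over the members and -0.0029 over all tested genes. Among the 1993 other genes with a mean of at least 100 CPM, 870 rose and 620 fell, with a median of 0.04. The members that fell did so by 1.06-fold to 1.45-fold (median 1.18-fold), and 12 of them by at least 1.25-fold. Both subunits took part, with 34 of 47 large and 21 of 32 small subunit members lower. Among the 44 tested members whose exons overlap no other gene, 30 were lower and 2 higher, with a median log2 change of -0.17.

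**Figure D2:**
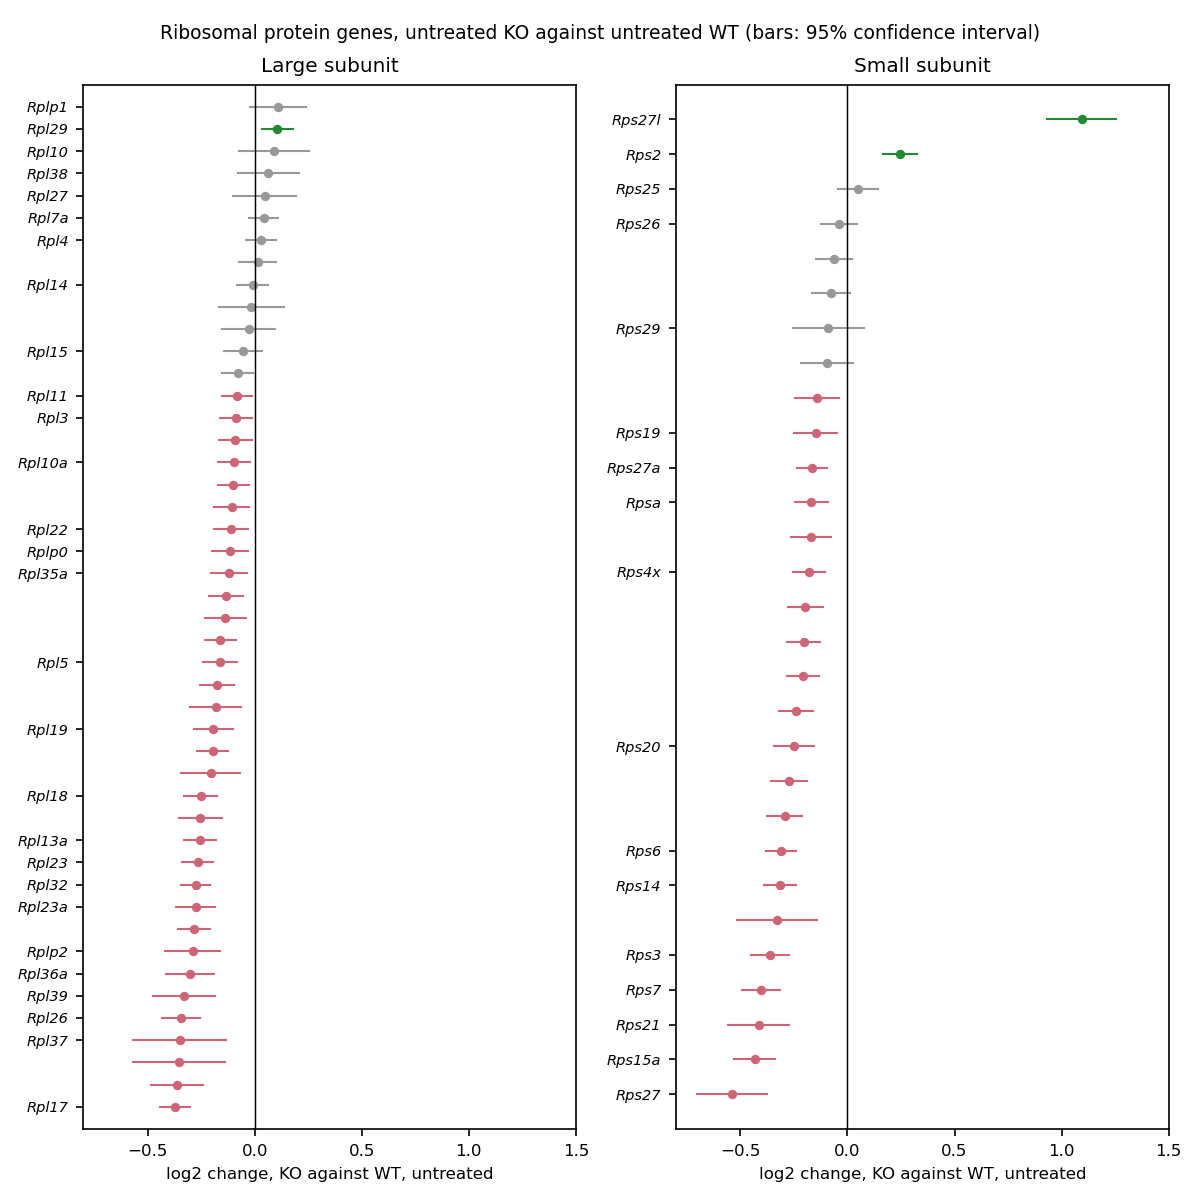
log2 change of tested members in untreated KO against untreated WT, with 95% confidence intervals, for the large (left) and small (right) subunit. Red points fell and green points rose at an adjusted p under 0.05, and gray points did not pass. Members named in the text are labelled, and Rps4l, whose interval is far wider, and members whose results are not reported here are not drawn. Most points lie between -0.54 and 0, and Rps27l stands alone at 1.09.

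Rps27, a zinc-binding protein of the small subunit, showed the steepest fall. Its level was 127.9, 119.4, 121.8 and 129.5 CPM in the untreated WT libraries and 90.6, 81.5, 88.8 and 82.1 CPM in the untreated KO libraries. No KO library reached the lowest WT library, and the log2 change was -0.54 ± 0.077 (SE, edgeR adjusted p = 7.8e-06). Rps15a (log2 -0.43), Rps21 (-0.41) and Rps7 (-0.40), all of the small subunit, followed, each with no overlap between the groups. Rps7 is among the ribosomal proteins that can bind Mdm2, the brake on p53. Rps6, the substrate of the S6 kinases downstream of mTORC1, lay at 2057, 1924, 1869 and 1876 CPM in WT and at 1600, 1541, 1541 and 1553 CPM in KO. It fell by 0.31 ± 0.035 on the log2 scale (SE, edgeR adjusted p = 2.99e-10). Rpl17, next to the exit of the nascent chain, gave the smallest adjusted p among the members that fell (log2 -0.37, edgeR adjusted p = 1.83e-12).

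The stalk proteins, which recruit elongation factors to the large subunit, differed in their calls, and the differences among them were not tested. Rplp0, the base of the stalk, fell by 0.11 and Rplp2 by 0.29 in log2 units (edgeR adjusted p = 0.019 and 0.000374). For Rplp1, the partner of Rplp2, the log2 difference was 0.11 (95% confidence interval across 0, edgeR adjusted p = 0.167). Rpl5, Rpl11 and Rpl23, which bind Mdm2 when ribosome assembly falters, fell by 0.16, 0.08 and 0.27 on the log2 scale (edgeR adjusted p = 0.00048, 0.0397 and 2.26e-08). Rpl22, whose loss in mice is known to block alpha beta T cell development, fell by 0.11 (edgeR adjusted p = 0.0183). Rpsa, also known as the laminin receptor precursor, fell by 0.17, and Rps27a, made as a fusion with ubiquitin, by 0.16. Rpl13a and Rps19, of which the latter is mutated in human Diamond-Blackfan anemia, fell by 0.26 and 0.15. Of the 4 X-linked members, Rps4x, Rpl36a and Rpl39 fell by 0.18, 0.30 and 0.33, and Rpl10 had a log2 difference of 0.09 (edgeR adjusted p = 0.363).

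Rps27l, Rps2 and Rpl29 rose in untreated KO. Rps27l, a paralog of Rps27 known as a target of p53, lay at 7.04, 8.57, 7.65 and 9.29 CPM in WT and at 18.6, 16.4, 16.8 and 17.9 CPM in KO. The groups were far apart, with a log2 change of 1.09 ± 0.079 (SE, edgeR adjusted p = 3.16e-16). Rps27l therefore made up 6.13% ± 0.713 of the summed counts of Rps27 and Rps27l in WT and 16.9% ± 0.833 in KO (SD, n = 4 each). Rps2, at the mRNA entry side of the small subunit, lay at 380.8, 349.5, 347.4 and 363.3 CPM in WT and at 440, 399, 441 and 428 CPM in KO. Its log2 change was 0.24 ± 0.040 (SE, edgeR adjusted p = 1.32e-06). Rpl29 rose by 0.11 in log2 units (edgeR adjusted p = 0.0104).

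**Figure D3:**
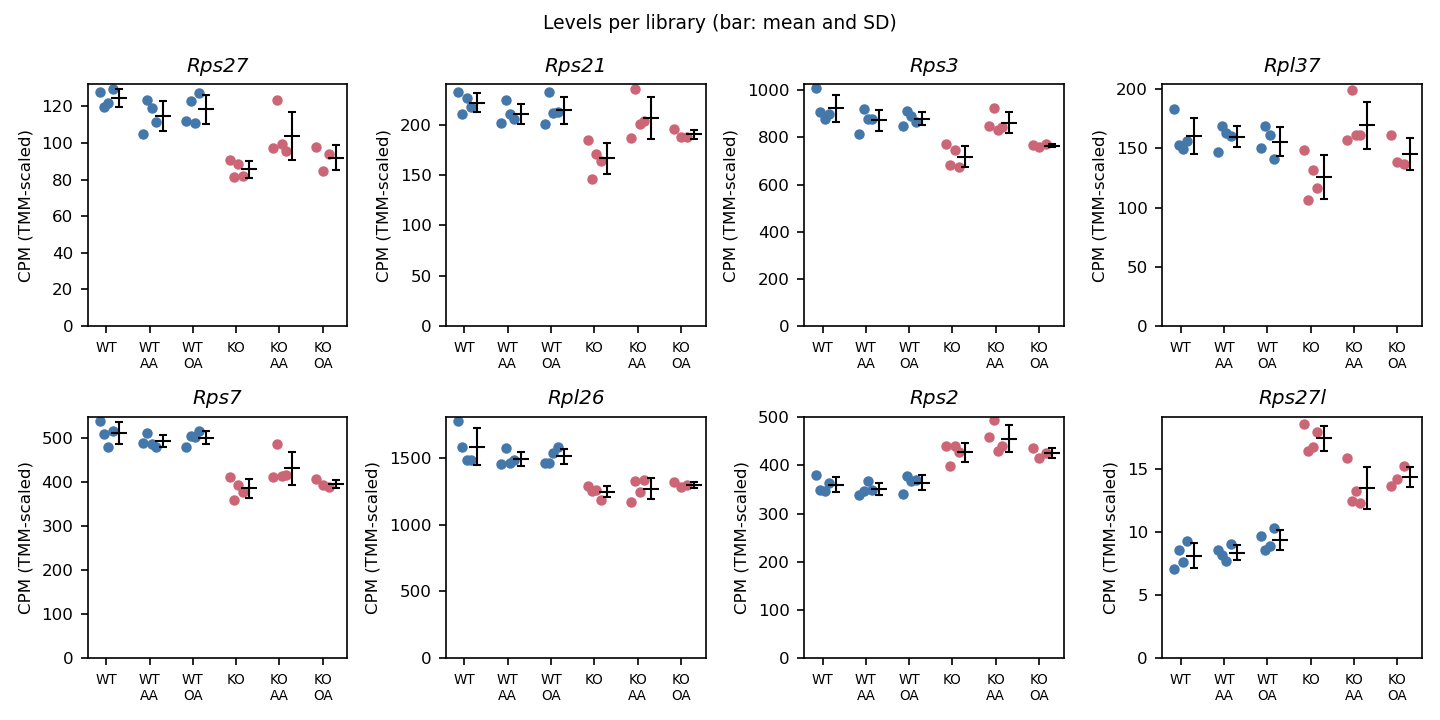
Level per library (CPM scaled by TMM, axis from 0) of 8 members in the 6 groups, WT in blue and KO in red, with bars for mean and SD. In Rps27, Rps21, Rps3 and Rpl37 the untreated KO group has the lowest mean, in Rps7 and Rpl26 the KO groups lie below the WT groups with 1 KO with AA library of Rps7 reaching them, and in Rps2 and Rps27l all KO libraries lie above all WT libraries.

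Members with and without the TOP run at the annotated start had medians close to each other. Of the 13 members with it, 10 fell in untreated KO, with a median log2 change of -0.20. Of the 44 tested members with a start sequence but no run at the start, 32 fell and 2 rose, with a median of -0.17. Of 316 other tested genes with the run at the start, 103 fell and 64 rose (median -0.05). Of 10429 other tested genes with a start sequence but no such run, 2671 fell and 3086 rose (median 0.01). Rps27, Rps21, Rps15a, Rps6 and Rplp2 printed above hold the run at the start, while Rps27l holds it 1 base and Rps2 4 bases downstream of the annotated start. Rps7, Rpl5 and Rps3, not printed, have no such run within 5 bases of the start and were also lower in untreated KO. Across 77 members, Spearman's rho of the untreated genotype change was 0.09 with mRNA length and 0.28 with mRNA GC content, given as a description since the members share libraries.

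Of 7 ribosomal genes outside the naming rule, 5 fell and 2 rose in untreated KO (median log2 change -0.13), while mitochondrial ribosomal protein and ribosome biogenesis genes mostly rose. Fau, which carries a small subunit protein behind a ubiquitin-like part, fell by 0.35, Rps3a1 by 0.13 and Rack1, a scaffold on the small subunit, by 0.10. Rpl22l1, the paralog of Rpl22, fell by 0.43, while Rpl7l1 and Rpl36al rose by 0.42 and 0.26 on the log2 scale. Of 78 mitochondrial ribosomal protein genes, which serve translation inside mitochondria, 63 rose and 1 fell in untreated KO (median log2 change 0.36). Of 30 ribosome biogenesis genes with Myc, 27 rose and 0 fell (median 0.42). Among them Nop56, of the small nucleolar RNA particles that methylate ribosomal RNA, rose by 0.61, Polr1b, a subunit of RNA polymerase I, by 0.65, and Myc by 0.10 (edgeR adjusted p = 0.0366). Of 20 other mRNAs known for TOP starts, 7 rose and 8 fell (median -0.09). This list shares 3 genes, Fau and Rack1 among them, with the 7 ribosomal genes above, and the 17 others gave 7 higher and 5 lower (median -0.05). Tpt1 fell by 0.26 and Npm1, a nucleolar chaperone, rose by 0.36. Of 17 tested genes of mTORC1 and TOP control, 11 rose and 1 fell, among them Larp1 (log2 0.23) and Eif4ebp1 (0.42).

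**Figure D4:**
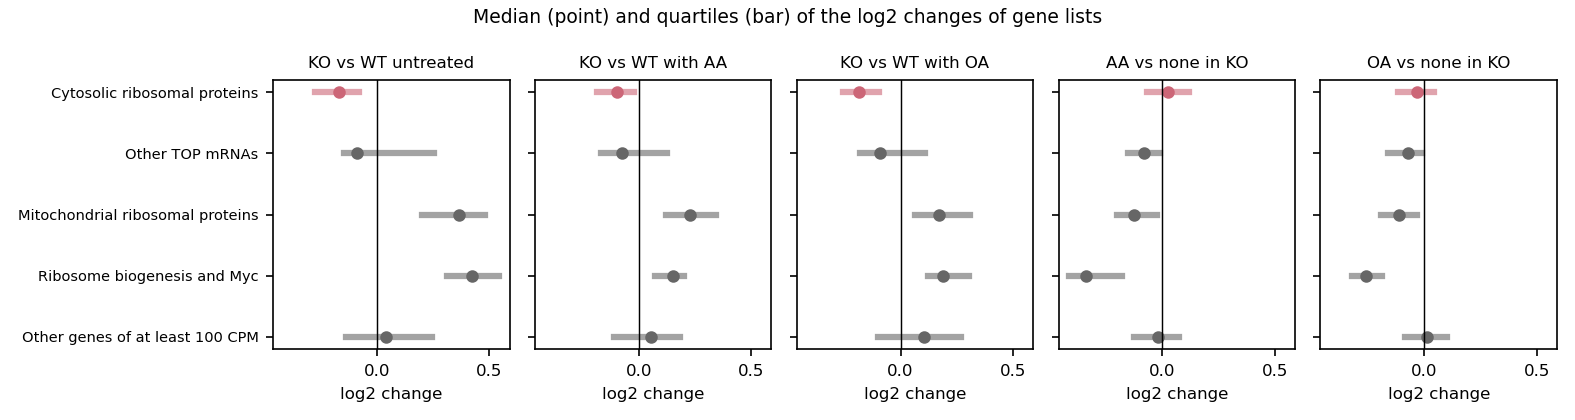
Median (point) and quartiles (bar) of the log2 change of 5 gene lists in 5 comparisons. In untreated KO against WT the cytosolic ribosomal proteins lie at a median of -0.17, against 0.36 for mitochondrial ribosomal proteins and 0.42 for ribosome biogenesis and Myc.

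Markers of cell state differed between the genotypes along with the members. The 5 markers of activated or dividing T cells (Mki67, Top2a, Gzmb, Tfrc and Il2ra) summed to 7095 to 7627 CPM in untreated WT and 9166 to 9494 CPM in untreated KO. Of 4 markers of naive or resting T cells, Il7r, the receptor for interleukin 7, fell by 0.93 on the log2 scale in untreated KO, Tcf7 by 0.36 and Ccr7 by 0.32 (edgeR adjusted p = 9.07e-25, 2.25e-12 and 5.83e-09). The log2 difference of Lef1 was -0.06 (edgeR adjusted p = 0.116). Of markers of other cells, 3 of CD4+ T cells summed to 27.5 to 29.8 CPM in WT and 20.7 to 23.8 CPM in KO. Among these only Foxp3 was called lower, with a mean of 20.8 CPM in untreated WT and 13.2 CPM in untreated KO. Zbtb7b was called higher (5.54 and 6.97 CPM), and Cd4 itself was not called (log2 -0.16, edgeR adjusted p = 0.411). The 9 dendritic cell markers summed to 33.7 to 37.7 CPM in WT and 23.3 to 26.7 CPM in KO, with 4 of them called lower and 1 higher. The 4 platelet markers summed to 8.40 to 10.1 and 3.32 to 4.48 CPM. The 3 NK markers summed to 18.4 to 20.8 and 38.4 to 41.7 CPM, and their sum in WT was nearly all Eomes (19.3 CPM), which CD8+ T cells also express. The part of these differences in the fall of the members was not tested.

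With AA and with OA the genotypes differed in the same direction. With AA, 38 members were lower and 5 higher in KO (median log2 change -0.10), where 42.7% of all tested genes passed the threshold, 21.4% higher and 21.2% lower. With OA, 53 were lower and 3 higher (median -0.19), against 43% of all tested genes, 21.6% higher and 21.4% lower. The members' shares were 54.4% with AA and 70.9% with OA. Of the 1993 other genes with a mean of at least 100 CPM, 70.1% passed with AA, 42.5% higher and 27.6% lower. With OA 76.4% of them passed, 50.3% higher and 26.1% lower. The members were thus called less often than genes of like level, but more often lower (48.1% and 67.1%). These 3 genotype comparisons share no library. In all of them, 31 members were lower in KO, Rps2 and Rps27l were higher, and 6, among them Rpl10, Rpl14, Rpl4, Rplp1 and Rps25, passed in none. No member was lower in one and higher in another. The same counts over all tested genes were not made, so these counts do not set the members apart from other genes. Over the 79 tested members, which share the libraries of each group, the changes without fatty acid correlated with those under AA at a Pearson's r of 0.519 and with those under OA at 0.499, and the changes under AA and OA at 0.827. Without Rps4l and Rps27l the values were 0.327, 0.557 and 0.765.

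Rpl17 gave nearly the same genotype difference in every condition, at a log2 change of -0.37 in untreated cells, -0.37 with AA and -0.37 with OA. Its level was 825 to 834 CPM in KO with OA and 1054 to 1129 CPM in WT with OA. Rps14, on the platform of the small subunit, was lower by 0.32, 0.32 and 0.45 on the log2 scale in the same order, and Rpl32 by 0.28, 0.21 and 0.29. Rpl38, linked in mice to the translation of Hox mRNAs, was higher in KO with AA (log2 0.29, edgeR adjusted p = 0.00112), and its log2 difference without fatty acid was 0.06 (edgeR adjusted p = 0.477). Rps29 was also called higher with AA (log2 0.27, edgeR adjusted p = 0.00506). Without replicate 2 of KO with AA this value was 0.16 (edgeR adjusted p = 0.0751). Rps4l was called higher in KO with OA, at levels of 0.29 CPM on average over all libraries, where a few counts decide the value.

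**Figure D5:**
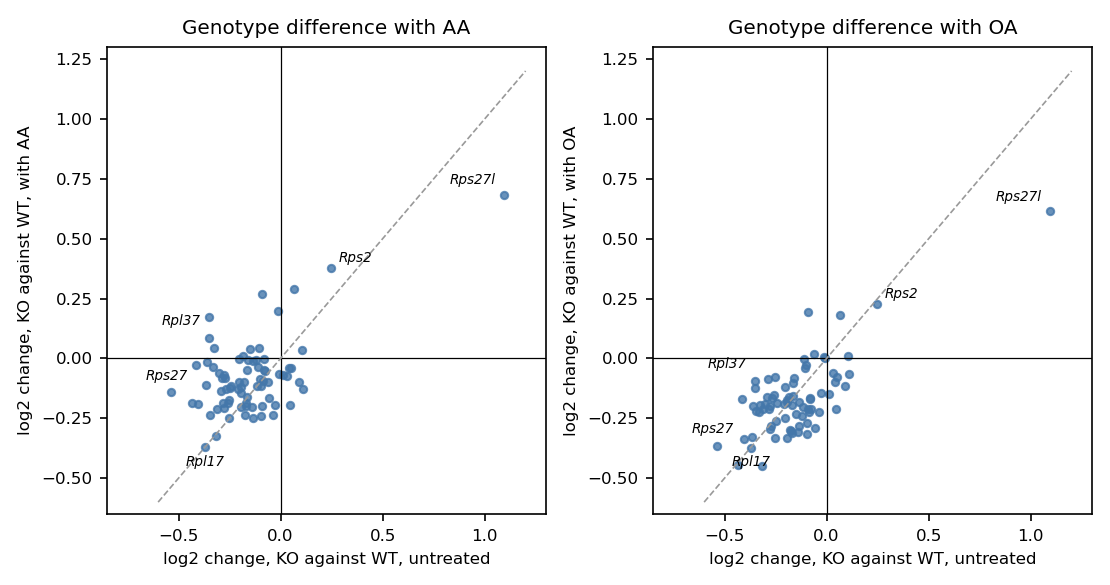
log2 change of KO against WT with AA (left) or OA (right) on the vertical axis against the untreated change on the horizontal axis, 1 point per tested member without Rps4l and members whose results are not reported here, with a dashed line of equal change. Most points lie at the lower left, Rps27 and Rpl37 lie above the line on both sides, and Rps2 and Rps27l lie in the upper right.

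In WT cells neither fatty acid changed a member at the threshold. AA against none called 0 of 79 members in edgeR, against 0.5% of all tested genes (0.2% higher, 0.3% lower), with 7 members at an unadjusted p under 0.05. OA against none called 0, against 3.72% of all tested genes (1.22% higher, 2.5% lower), with 4 at an unadjusted p under 0.05. AA against OA in WT called 0, against 3.15% of all tested genes (2.06% higher, 1.08% lower), with 4 at an unadjusted p under 0.05. DESeq2 called 0, 0 and 1. The median log2 change of the members was -0.05 with AA and -0.02 with OA. In Rps3, a small subunit protein at the mRNA entry site, the log2 difference of AA from none was -0.08 (edgeR adjusted p = 0.67).

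In KO cells AA moved members in both directions. Against untreated KO, 15 rose and 12 fell, where 27.4% of all tested genes passed, 12.1% higher and 15.3% lower. The members' share was 34.2%, and the 12 that fell (15.2% of 79) lay close to the share of all tested genes. Of the 1993 other genes with a mean of at least 100 CPM, 50.4% passed, 19.8% higher and 30.7% lower. With library factors computed without the members the split was 22 higher and 9 lower, and without replicate 2 of KO with AA it was 10 higher and 18 lower, so the balance of the directions depends on scaling and on that library. Rps3 rose from 771, 684, 744 and 676 CPM to 850, 926, 831 and 843 CPM. All treated libraries lay above all untreated ones, and the log2 change was 0.26 ± 0.043 (SE, edgeR adjusted p = 4.49e-06). Rpl37 rose by 0.43, Rps29 by 0.38, Rps21 by 0.31 and Rps27 by 0.28 on the log2 scale. Without replicate 2 of KO with AA, the values of Rps3, Rpl37, Rps29, Rps21 and Rps27 were 0.24, 0.36, 0.28, 0.26 and 0.20, still past the threshold.

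Among the members that fell with AA in KO, Rps27l fell by 0.37 (edgeR adjusted p = 0.000124), from 18.6, 16.4, 16.8 and 17.9 CPM to 15.9, 12.5, 13.2 and 12.3 CPM. Its share of the summed counts of Rps27 and Rps27l was 11.6% ± 1.97 in KO with AA (SD, n = 4). Rpl7a fell by 0.15, Rpl4 by 0.14, Rpl27 by 0.27 and Rplp1 by 0.23 on the log2 scale. Of the 23 tested members whose mRNA model is under 600 bases, 8 rose and 3 fell (median 0.09), and of the 54 longer ones 6 rose and 9 fell (median -0.01). Of the 216 other genes with an mRNA model under 600 bases, 15 rose and 28 fell (median 0.003). Of 12501 other genes with a longer model, 1748 rose and 2299 fell (median -0.01). Of the 30 ribosome biogenesis genes with Myc, 24 fell and 0 rose with AA in KO (median -0.34), and Myc itself fell by 0.47. The members' untreated genotype difference and this comparison use the same untreated KO libraries, so a low value there enters both.

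With OA in KO, the members were called about as often as all tested genes. Against untreated KO, 18 fell and 0 rose (22.8% of the 79), where 23.1% of all tested genes passed, 10.4% higher and 12.7% lower. Of the 1993 other genes with a mean of at least 100 CPM, 42.1% passed, 20.6% higher and 21.5% lower. The median log2 change was -0.03 over the members and -0.01 over all tested genes. Without replicate 2 of KO with OA, 7 fell. Rpl10a fell by 0.18 (edgeR adjusted p = 0.000586), Rpl15 by 0.20, Rpl3 by 0.16 and Rps27l by 0.28 on the log2 scale. Rpl10a forms the stalk on the side opposite Rplp0, and Rpl3 is an early component of the large subunit near its catalytic center. Of the 30 ribosome biogenesis genes with Myc, 24 fell and 0 rose (median -0.26). Between the fatty acids in KO, AA gave 7 members higher than OA and 0 lower, where 13.9% of all tested genes passed, 6.71% higher and 7.24% lower. The members were called less often (8.86%) than all tested genes. Of the 1993 other genes with a mean of at least 100 CPM, 31.1% passed, 10.4% higher and 20.7% lower. Rpl18, Rps15a, Rpl35a and Rps3 led the 7 members, at log2 differences of 0.16, 0.19, 0.17 and 0.17.

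Whether a fatty acid acted differently in the genotypes was tested directly. Each such test includes the untreated KO and WT libraries, so their genotype difference enters it with the sign reversed. For AA, the effect was more positive in KO for 12 members and more negative for 2, where 14% of all tested genes passed, 5.92% higher and 8.05% lower. The members' share was 17.7%. Of the 1993 other genes with a mean of at least 100 CPM, 30.2% passed, 12% higher and 18.2% lower. Rps3 gave the smallest adjusted p, with an effect larger in KO by 0.35 ± 0.061 on the log2 scale (SE, edgeR adjusted p = 5.59e-05), and Rps21 differed by 0.39 (edgeR adjusted p = 0.00882). The AA effect on Rps27l was lower in KO by -0.41 (edgeR adjusted p = 0.00871) and that on Rps26, a small subunit protein near the mRNA exit, by -0.20. DESeq2 called 25 members, and leaving out replicate 2 of untreated KO left 7. For OA, the effect was more negative in KO for 4 members (Rps27l, Rpl15, Rpl10a and Rps26) and more positive for 0, where 12.4% of all tested genes passed, 5.71% higher and 6.66% lower. The members were called less often (5.06%) than all tested genes and than the 1993 other genes with a mean of at least 100 CPM (30.6%). Rps27l differed by -0.48 (edgeR adjusted p = 0.00355). The T cell and CD8 markers summed to 1635 to 1687 CPM in untreated KO, 1474 to 1565 CPM in KO with AA and 1528 to 1581 CPM in KO with OA. The activation markers summed to 9166 to 9494, 7725 to 8687 and 8640 to 9297 CPM in the same order, with 4 of 5 lower with AA and 3 of 5 with OA. The dendritic cell markers summed to 23.3 to 26.7, 20.5 to 22.6 and 16.0 to 17.6 CPM. Of these 9 markers, 3 rose and 2 fell with AA, and 0 rose and 4 fell with OA. The part of these marker lists in the differences of the members was not tested.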

How the data were processed

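The values used are raw counts per gene, deposited by the authors for 49492 genes and 23 libraries. RNA was taken up in TRIzol and made into stranded libraries of polyadenylated RNA, per the labels' protocols. The submitters' processing notes name Trimmomatic 0.36, featureCounts of Subread 1.5.1 and GRCm38. Not given in the sources used here are the aligner, which annotation was counted and whether strand was used.

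edgeR 4.0.16 (R 4.3.3) kept 18015 genes with filterByExpr (minimum count 10, minimum total 15), scaled libraries by TMM (factors 0.961 to 1.034) and fitted 1 mean per group by quasi-likelihood. Benjamini-Hochberg adjustment ran over all tested genes within each of 11 comparisons, at a threshold of 0.05. CPM are scaled by TMM, except those of Xist and Ddx3y. The labels do not say what the replicate numbers stand for, and the reported fit did not use them to pair libraries. Alternatives were DESeq2 1.42.0, limma-voom 3.58.1 with quality weights, other scalings and filters, only the groups compared, a replicate block and each library left out in turn. The fit was tested on simulated data for untreated KO against WT, with 50 genes changed at each fold size and 17815 unchanged. There edgeR found 22% of 1.1-fold, 76% of 1.2-fold and 100% of 1.5-fold changes. In the reported comparison 49.7% of tested genes passed, which makes the adjusted threshold less strict, so these rates do not carry over to it. Small changes can still go uncalled. The members and gene lists were chosen with earlier results of these data known. Named members are the 4 with the smallest adjusted p in each direction of each comparison, the 5 highest and lowest, and those named for a role. Any other member named was chosen after its values were seen. The results of a few genes are not reported here, though counts and medians over lists include them.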

Additional observations from a re-analysis of the deposited data

Results flagged for a closer look

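Of 260 sets of 4 libraries (a member or the member share in a group), 18 held a library whose gap to the nearest of the others exceeded Dixon's 95% limit for its group's range, and chance alone flags about 1 in 20. In KO with AA, replicate 2 was high in the member share (5.27%), Rpl10 (273.9 CPM), Rpl37 (199 CPM), Rps19 (223 CPM), Rps27 (123 CPM) and Rps7 (487 CPM). In untreated WT, replicate 1 was high in Rpl13a (1516 CPM). In WT with OA, replicate 4 was high in Rpl17 (1129 CPM) and Rpl3 (2591 CPM), and replicate 1 was low in Rps27a (166 CPM) and Rps20 (232 CPM). In WT with AA, replicate 3 was low in Rpl38 (41.2 CPM) and replicate 1 low in Rpl39 (101 CPM). In untreated KO, replicate 3 was low in Rplp0 (623 CPM) and replicate 1 high in Rps14 (328 CPM). Rpl39l, with 32 counts in all, was high in replicate 3 of WT with AA (0.0689 CPM), replicate 3 of WT with OA (0.0988 CPM) and replicate 1 of KO with AA (0.122 CPM), where a few counts decide the value.

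The AA effect differed between genotypes, in the direct test over all genes, by 0.35 for Rps3, 0.25 for Rps15a, 0.39 for Rps21, 0.22 for Rps7, 0.21 for Rpl23a, 0.40 for Rps27, 0.24 for Rpl36a and 0.36 for Rps29 (log2, KO minus WT). It differed by -0.41 for Rps27l and -0.20 for Rps26. The untreated libraries enter this test too, so these values are not separate evidence from the untreated genotype differences. Without replicate 2 of KO with AA, the value for Rps29 was 0.27 and its edgeR adjusted p rose to 0.0632. For Rpl36a the edgeR adjusted p ran from 0.000767 without replicate 1 of untreated KO to 0.0895 without replicate 4 of KO with AA, and it was above the threshold without WT replicates 1 or 2, without KO replicates 2, 3 or 4 and without replicates 2, 3 or 4 of KO with AA. The OA effect differed by -0.48 for Rps27l, -0.23 for Rpl15, -0.18 for Rpl10a and -0.19 for Rps26.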

How the results depend on the processing

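The counts of members that differed between the genotypes in each of the 3 conditions stayed within 1.5 times the reported count under every alternative run. Leaving out each library in turn gave 47 to 58 members without fatty acid, 35 to 47 with AA, 51 to 56 with OA, and 18 to 34 for AA in KO. The same gave 7 to 21 for OA in KO, 3 to 14 for AA against OA in KO, 7 to 25 for the genotype difference of the AA effect, 2 to 7 for that of the OA effect, 0 to 1 for OA in WT, and 0 for AA and for AA against OA in WT. The lowest count for AA against OA in KO came without replicate 2 of KO with OA, and the highest without replicate 4 of KO with AA. For the AA effect, 9 members were called without replicate 1 of untreated WT, 7 without replicate 2 of untreated KO and 25 without replicate 3 of untreated WT. For the OA effect, 2 were called without WT replicates 2 or 4 (untreated or with OA) or without replicate 1 of KO with OA, and 7 without replicate 3 of WT with OA or of untreated KO.

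Other settings moved small counts. With only the groups compared, 1 member fell with AA in WT, 1 with OA in WT and 1 differed between AA and OA in WT. DESeq2 called 1 for AA against OA in WT and 25 for the AA effect. limma-voom called 1 for OA in WT, 22 for the AA effect and 9 for the OA effect. With no filter the counts were 1 for OA in WT, 17 for AA against OA in KO, 22 for the AA effect and 10 for the OA effect. The member share was 5.31% in WT with AA, 4.90% in KO and 4.83% in KO with OA on TMM-scaled library sizes, and 5.50%, 4.86% and 4.79% with the named pseudogenes added. For the members named in the text, the only ones checked, no value called in the reported fit changed sign under any of these settings. The causes of the shifts were not tested.

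Deviations of same-numbered libraries from their group means, over all tested genes, were nearly uncorrelated. Of 55 pairs, 1 had a correlation over 0.1 (range -0.152 to 0.112). Counting noise in genes of low level can hide a shared origin, so this does not settle whether the numbers pair libraries. With the replicate number as a block, 56, 41 and 56 members differed between the genotypes untreated, with AA and with OA, 26 with AA in KO and 15 with OA in KO. The block gave 0 for each fatty acid and their difference in WT, 6 for AA against OA in KO, 12 for the AA effect and 4 for the OA effect. Precision is limited by 3 or 4 libraries per group and by reads shared with pseudogenes, and depth limits Rps4l, Rpl39l, Rpl3l and Rpl10l.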
